A study of Mus musculus with 15 samples.

Results

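Chemokines are small secreted proteins that attract leukocytes along gradients held on cell surfaces, and the inflammatory ones are made when tissue is injured, infected or invaded. Each acts through receptors on particular leukocytes: CCR2 on monocytes, CXCR2 on neutrophils, CXCR3 on activated T cells and natural killer cells, CCR6 on T cells of the Th17 kind and on some dendritic and B cells, and CX3CR1 on monocytes and natural killer cells. Lymphatic endothelial cells line the vessels and lymph node sinuses through which leukocytes and antigen travel, and they can make and scavenge chemokines.

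The genes described are 10 inflammatory chemokine genes chosen by name, out of 21839 genes in the count table: Ccl2, Ccl7 and Ccl8 (ligands of CCR2 and related monocyte receptors), Ccl5 (an attractant of T cells and monocytes), Cxcl9 and Cxcl10 (ligands of CXCR3), Cxcl1 and Cxcl2 (ligands of CXCR2), Ccl20 (the ligand of CCR6) and Cx3cl1 (the membrane-anchored ligand of CX3CR1). Their RNA was measured in lymphatic endothelial cells sorted from the tumor (Tumor), from the tumor-draining lymph node (TdLN) and from a non-draining lymph node (NdLN), with 5 libraries in each group. All 3 groups came from C57bl/6 mice aged 10 weeks into which a melanoma line, called lymphangiogenic in the labels, had been transplanted, so NdLN cells are also cells of tumor-bearing mice, and tumor-free mice were not analysed here. Cells were sorted as CD45 negative, CD31 positive and gp38 positive, a gate that a cell of another type can pass when it carries CD31 and gp38 or adheres to a lymphatic cell. The labels do not say whether libraries of a group came from separate animals, and the p-values speak only to the spread over the libraries at hand, which may be technical.

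Total counts per library ranged from 23830337 to 37437282. The summed level of 9 lymphatic markers, among them Prox1 and Lyve1, was 3460 to 4860 CPM (counts scaled to a common library size) in Tumor libraries, 6460 to 8080 CPM in TdLN libraries and 7510 to 9860 CPM in NdLN libraries. The 9 went different ways. Against NdLN cells 2 were higher in Tumor and 3 lower (adjusted p under 0.05, edgeR), beside 34.0% and 32.5% of tested genes. Ccl21a averaged 1227 CPM in Tumor, 135.5 CPM in TdLN and 105 CPM in NdLN libraries. In the same order Prox1 averaged 105, 538.5 and 766 CPM, Pecam1 276, 1179 and 1596 CPM, and Lyve1 858, 1680 and 977 CPM. These 4 were named after their values were seen. Markers of other cells were present too. The summed level of 8 pigment cell genes was 24100 to 39600 CPM in Tumor, 12 to 33 CPM in TdLN and 17.8 to 37.6 CPM in NdLN libraries. The 9 fibroblast and reticular markers summed to 1270 to 10200 CPM in Tumor, 121 to 382 CPM in TdLN and 247 to 580 CPM in NdLN libraries. The 10 macrophage and monocyte markers summed to 106 to 241 CPM in Tumor, 13.0 to 45.3 CPM in TdLN and 8.74 to 30.7 CPM in NdLN libraries, and 9 of the 10 were higher in Tumor against TdLN and 9 against NdLN cells. Their part in the chemokine results was not tested, and in such bulk samples fewer cells of a type and less RNA per cell cannot be told apart.

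All 10 genes passed the filter on low counts, as did 13887 genes in all. In TdLN against NdLN cells 2 of the 10 were higher, 2 were lower and 6 did not pass the threshold, a Benjamini-Hochberg adjusted p under 0.05 in edgeR's quasi-likelihood test. The background was 3.49% of tested genes, with 1.84% higher and 1.64% lower. TdLN and NdLN libraries did not overlap for 4 of the 10, the same 4 that were called, against 7.83% of tested genes. The background rests on 484 called genes, a count that dropped to between 225 and 319 when NdLN 2, 3, 4 or 5 or TdLN 1, 2 or 3 was left out. In Tumor against NdLN cells 4 were higher, 5 were lower and 1 did not pass, where 66.5% of tested genes were called, 34.0% higher and 32.5% lower. Libraries did not overlap for 7 of the 10, against 54.6% of tested genes. In Tumor against TdLN cells 4 were higher, 4 were lower and 2 did not pass, where 62.0% of tested genes were called, 31.9% higher and 30.1% lower. Libraries again did not overlap for 7 of the 10, against 46.6%. The shares called in the Tumor comparisons were thus near the background, and what varied was which genes went up and which went down. The median log2 fold change of the 10 was -0.53 in TdLN against NdLN, -0.72 in Tumor against NdLN and -0.18 in Tumor against TdLN cells, beside medians over all tested genes of -0.01, 0.04 and 0.04. The comparisons share libraries, so they are not independent of each other.

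**Figure D1:**
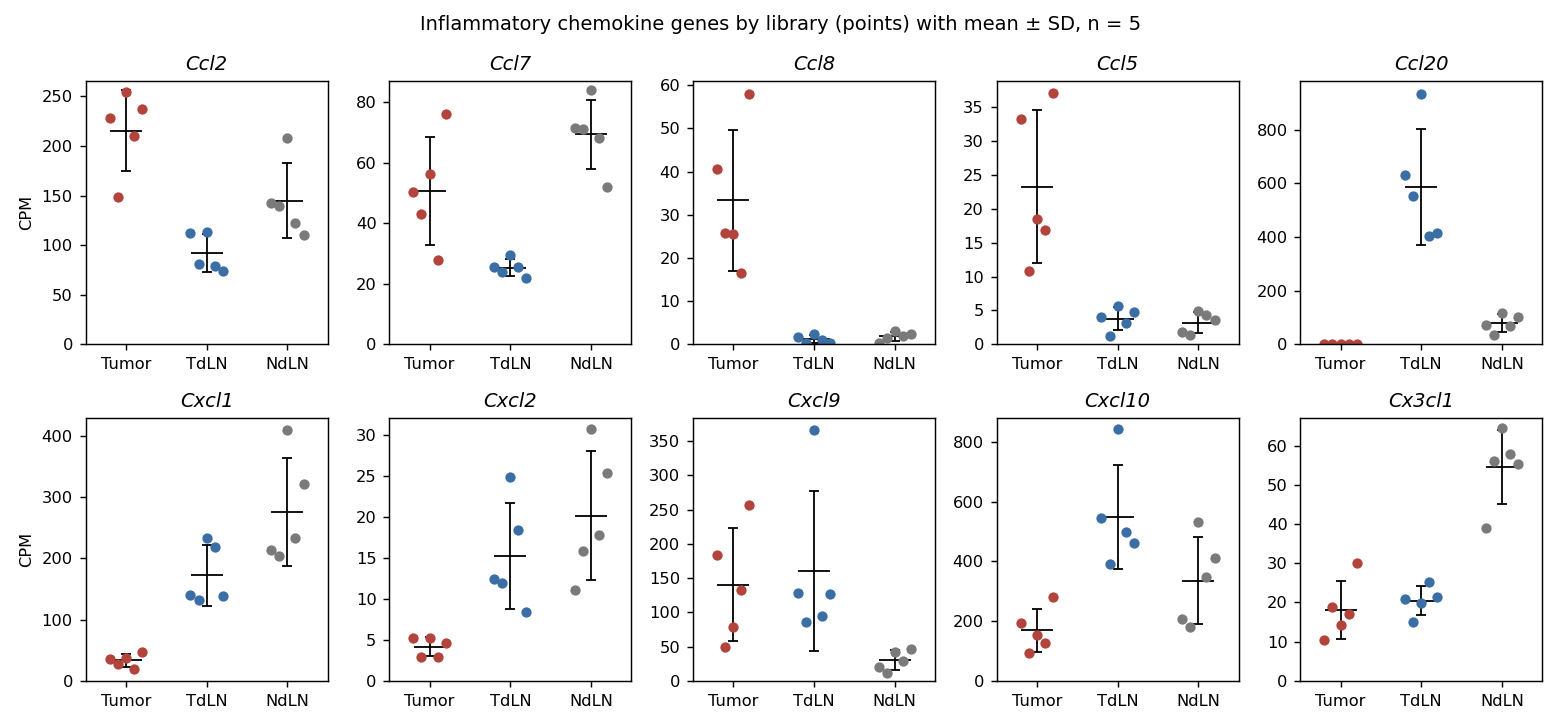
Level of each of the 10 chemokine genes in CPM (vertical axes, from 0, each panel with its own scale) in the 5 Tumor, 5 TdLN and 5 NdLN libraries; points are libraries and bars are the mean ± SD. Ccl20 lies at 402 to 935 CPM in TdLN libraries and near 0 in Tumor libraries, while Ccl8 and Ccl5 are high in Tumor libraries.

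Ccl2, Ccl7 and Ccl8 attract monocytes. The genes lie in a row on the plus strand of chromosome 11 (GRCm38), Ccl2 at 82035571 to 82037453, Ccl7 at 82045712 to 82047525 and Ccl8 at 82115185 to 82116799, with no protein-coding gene between Ccl2 and Ccl7 and 2 between Ccl7 and Ccl8. They did not move together. Ccl2 had 228, 148, 254, 210 and 237 CPM in Tumor libraries 1 to 5, 112, 81.2, 113, 79.4 and 73.7 CPM in TdLN libraries and 143, 139, 208, 123 and 110 CPM in NdLN libraries. Every Tumor library was above every TdLN library, while the Tumor and NdLN ranges overlapped. The log2 fold change of Ccl2 was 1.23 ± 0.19 (SE) in Tumor against TdLN cells (adjusted p = 5.07e-05, edgeR) and 0.58 ± 0.19 in Tumor against NdLN cells (adjusted p = 0.0140). Between TdLN and NdLN cells it was -0.65 ± 0.19 and did not pass (adjusted p = 0.0753), but it passed in DESeq2 (adjusted p = 0.0335).

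Ccl7 had 50.3, 43.1, 56.1, 27.8 and 76.2 CPM in Tumor libraries, 25.6, 23.8, 29.4, 25.7 and 21.7 CPM in TdLN libraries and 71.6, 71.3, 83.9, 68.1 and 52.0 CPM in NdLN libraries. The TdLN libraries were the lowest and the tightest, and all 5 lay below every NdLN library. Ccl7 was lower in TdLN than in NdLN cells by a log2 fold change of -1.46 ± 0.21 (adjusted p = 0.00252, edgeR) and higher in Tumor than in TdLN cells by 1.01 ± 0.21 (adjusted p = 0.00066), where Tumor 4 lay inside the TdLN range. In Tumor against NdLN cells it was at -0.45 ± 0.21 (adjusted p = 0.0658), and it passed as lower without NdLN 5 (adjusted p = 0.0369) and without Tumor 5 (adjusted p = 0.00738).

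Ccl8 was almost silent in the nodes. It had 40.6, 25.9, 25.5, 16.6 and 58.1 CPM in Tumor libraries, 1.73, 0.384, 2.48, 0.873 and 0.316 CPM in TdLN libraries and 0.223, 1.48, 3.03, 1.86 and 2.46 CPM in NdLN libraries. The node values rest on 10 to 86 counts per TdLN library and 7 to 107 counts per NdLN library. Ccl8 rose in Tumor cells by a log2 fold change of 4.84 ± 0.68 against TdLN (adjusted p = 1.81e-05, edgeR) and 4.20 ± 0.65 against NdLN cells (adjusted p = 4.13e-05), with no overlap between libraries. TdLN and NdLN cells were not told apart (-0.64 ± 0.61, adjusted p = 0.642). Macrophage markers, which moved the same way, are given above: Lyz2, a lysozyme gene of myeloid cells, averaged 53.6 ± 29.3 CPM in Tumor, 10.1 ± 8.16 CPM in TdLN and 12.8 ± 5.24 CPM in NdLN libraries (SD, n = 5), and its part in the Ccl8 result was not tested.

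Because Ccl7 and Ccl2 lie 8258 bases apart and share the receptor CCR2, their ratio was taken within each library, where library scaling cancels. The ratio of Ccl7 to Ccl2 CPM was 0.221, 0.291, 0.221, 0.132 and 0.321 in Tumor libraries, 0.229, 0.293, 0.259, 0.323 and 0.295 in TdLN libraries and 0.501, 0.511, 0.403, 0.555 and 0.472 in NdLN libraries. Every Tumor and every TdLN library lay below every NdLN library. The mean log2 ratio was lower than in NdLN by 0.79 in TdLN and by 1.09 in Tumor libraries, each with p = 0.00794 in a two-sided exact permutation test (adjusted p = 0.0119 over 9 ratio tests), the smallest p that 5 against 5 libraries can give. Tumor and TdLN ratios overlapped (exact p = 0.246).

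Ccl5 lies at 83525778 to 83530518 on the minus strand of chromosome 11. It had 33.3, 10.8, 18.5, 16.9 and 37.1 CPM in Tumor libraries, 4.04, 1.21, 5.64, 3.10 and 4.71 CPM in TdLN libraries and 1.79, 1.42, 4.98, 4.27 and 3.53 CPM in NdLN libraries. All Tumor libraries were above all node libraries, and the node groups covered the same range. Ccl5 rose in Tumor cells by a log2 fold change of 2.64 ± 0.46 against TdLN (adjusted p = 0.000157, edgeR) and 2.86 ± 0.47 against NdLN cells (adjusted p = 6.77e-05). The change was not past the threshold in TdLN against NdLN cells, at 0.23 ± 0.44 (adjusted p = 0.840). T cells, natural killer cells and macrophages can make Ccl5. The 9 T and natural killer cell markers summed to 1.99 to 5.92 CPM in Tumor, 1.65 to 5.06 CPM in TdLN and 1.37 to 15.3 CPM in NdLN libraries. The 10 macrophage and monocyte markers, at 106 to 241 CPM in Tumor, 13.0 to 45.3 CPM in TdLN and 8.74 to 30.7 CPM in NdLN libraries, were highest in Tumor libraries as Ccl5 was. The part of either cell type in the Ccl5 result was not tested.

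Cxcl9 and Cxcl10 attract activated T cells through the shared receptor CXCR3. Both are textbook targets of interferon-gamma, and Cxcl10 also responds to type I interferon and NF-kB. They are neighbours on the minus strand of chromosome 5, Cxcl9 at 92321347 to 92328079 and Cxcl10 at 92346638 to 92348889, with no protein-coding gene between them. Their promoters are printed because the RNA levels of these neighbours parted between the groups. The lines give the 250 bases upstream of the RefSeq start (GRCm38.p6, minus strand, 5′ to 3′), chr5:92328080-92328329 for Cxcl9 and chr5:92348890-92349139 for Cxcl10. Capitals mark matches on either strand to the kappa B consensus (the NF-kB motif), to the core of the interferon-stimulated response element (ISRE, GAAANNGAAA), to the gamma-activated site (GAS, TTCNNNGAA) or to the AP-1 motif (TGANTCA).
Cxcl9: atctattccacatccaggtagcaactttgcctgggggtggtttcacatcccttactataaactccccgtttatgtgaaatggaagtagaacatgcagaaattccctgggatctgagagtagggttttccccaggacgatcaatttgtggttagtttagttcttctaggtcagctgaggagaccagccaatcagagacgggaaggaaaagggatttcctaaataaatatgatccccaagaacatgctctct
Cxcl10: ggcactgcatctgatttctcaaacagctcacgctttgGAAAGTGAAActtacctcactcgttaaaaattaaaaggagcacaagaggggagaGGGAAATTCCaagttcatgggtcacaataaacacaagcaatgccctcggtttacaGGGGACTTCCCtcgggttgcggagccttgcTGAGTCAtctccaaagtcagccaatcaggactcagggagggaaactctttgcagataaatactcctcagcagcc
The Cxcl10 window held kappa B matches at bases -159 to -150 and -104 to -94 from the start (2 overlapping matches at -104 to -94), an ISRE core at -213 to -204 and an AP-1 match at -74 to -68. The Cxcl9 window held no match to these 4 patterns as written. For ISRE, GAS and AP-1 no looser pattern was searched, so elements that depart from these letters would be missed. A looser kappa B pattern, GGGNNNNNCC, which is not capitalised, had 2 overlapping matches in the Cxcl9 window at -130 to -120 and was in 45.8% of windows, so the absence of kappa B from Cxcl9 holds for the stricter consensus alone. Among 32851 RefSeq promoter windows of this length, 7.25% held kappa B, 2.98% the ISRE core, 7.02% GAS and 6.75% AP-1. A match describes letters only and says nothing of binding.

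Cxcl9 had 184, 50.0, 79.2, 133 and 257 CPM in Tumor libraries, 129, 85.4, 367, 94.96 and 127 CPM in TdLN libraries and 20.8, 11.97, 43.0, 28.7 and 46.6 CPM in NdLN libraries. Every Tumor and TdLN library was above every NdLN library, and TdLN 3 stood far above the other TdLN libraries. Cxcl9 rose by a log2 fold change of 2.41 ± 0.52 in TdLN (adjusted p = 0.0192, edgeR) and 2.22 ± 0.51 in Tumor cells (adjusted p = 0.00138), both against NdLN cells. The TdLN call was lost by a narrow margin without NdLN 1, NdLN 2 or NdLN 4 (adjusted p = 0.0511, 0.0502 and 0.0523). Tumor and TdLN cells were not told apart (-0.19 ± 0.49, adjusted p = 0.752), and the sign turned to 0.36 without TdLN 3.

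Cxcl10 ranked differently. It had 193, 93.4, 152, 128 and 281 CPM in Tumor libraries, 546, 392, 843, 498 and 462 CPM in TdLN libraries and 206, 181, 530, 347 and 411 CPM in NdLN libraries. All Tumor libraries were below all TdLN libraries, whereas NdLN libraries overlapped with both. Cxcl10 fell in Tumor cells by a log2 fold change of -1.69 ± 0.34 against TdLN (adjusted p = 0.000446, edgeR) and -0.98 ± 0.33 against NdLN cells (adjusted p = 0.0158, and 0.0524 without NdLN 3). For TdLN against NdLN cells it was at 0.71 ± 0.33 (adjusted p = 0.277). Of the Cxcl10 exon bases 133 overlap exons of Art3 on the other strand, and the library kit does not mark strand. Art3 averaged 52.1 CPM in Tumor, 29.6 CPM in TdLN and 23.2 CPM in NdLN libraries, and its part in the Cxcl10 counts was not tested.

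The ratio of Cxcl9 to Cxcl10 separated all 3 groups. It was 0.953, 0.535, 0.520, 1.04 and 0.915 in Tumor libraries, 0.236, 0.218, 0.435, 0.191 and 0.274 in TdLN libraries and 0.101, 0.0663, 0.0810, 0.0826 and 0.113 in NdLN libraries. No library of a group overlapped with another group. The mean log2 ratio was higher by 1.55 in TdLN than in NdLN, by 3.10 in Tumor than in NdLN and by 1.55 in Tumor than in TdLN libraries (exact p = 0.00794 and adjusted p = 0.0119 for each, two-sided permutation test). Within TdLN, library 3 had both the highest Cxcl9 level and the highest ratio.

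**Figure D2:**
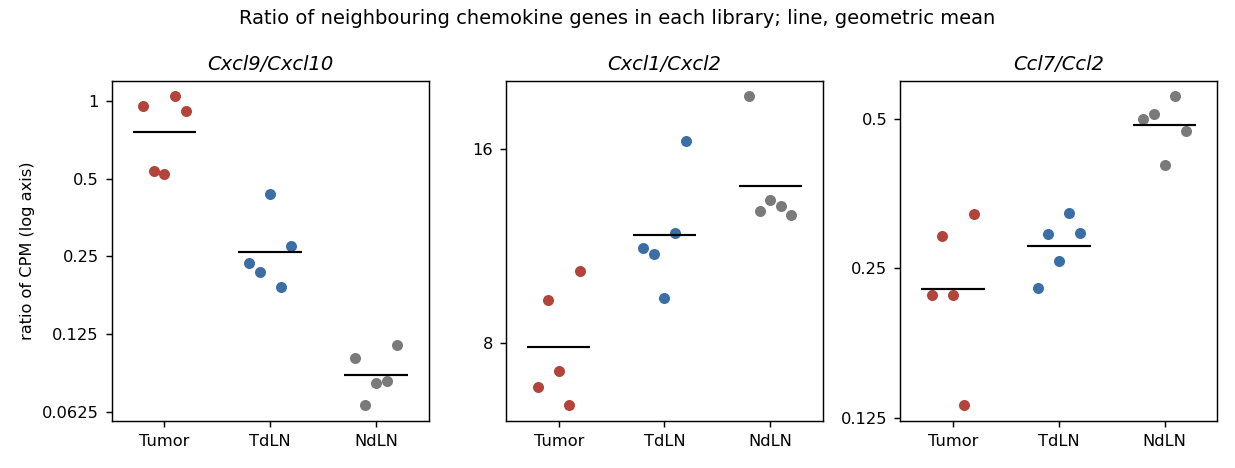
Ratio of CPM of neighbouring chemokine genes (vertical axes, log scale) in each Tumor, TdLN and NdLN library; points are libraries, lines are geometric means, n = 5. The Cxcl9/Cxcl10 ratio is 0.520 to 1.04 in Tumor, 0.191 to 0.435 in TdLN and 0.0663 to 0.113 in NdLN libraries, while the Ccl7/Ccl2 ratio of the Tumor and TdLN libraries overlaps.

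Genes of interferon-gamma signalling did not share the Cxcl9 pattern. Of 13 genes tested, 1 was higher and 1 was lower in TdLN than in NdLN cells. Ptpn2, a phosphatase that restrains cytokine signalling, was at 0.58 ± 0.13 (adjusted p = 0.0205, edgeR), and the feedback inhibitor Socs3 was at -0.97 ± 0.22 (adjusted p = 0.0242). Neither call held in every refit: Ptpn2 lost it without NdLN 2, NdLN 4, TdLN 1 or TdLN 3 (adjusted p = 0.0508 to 0.0664), and Socs3 without NdLN 2, 3 or 5 or TdLN 1, 2 or 3 (adjusted p = 0.0536 to 0.0698). In Tumor cells 1 gene, Gbp2 (0.96, named after its value was seen), was higher and 8 were lower than in NdLN, and 0 were higher and 10 lower than in TdLN cells (edgeR, with 1 higher at an unadjusted p under 0.05 and 0 higher in DESeq2). Ifngr1, a chain of the interferon-gamma receptor, was lower in Tumor by -1.79 ± 0.10 against TdLN (adjusted p = 1.31e-09) and the kinase gene Jak1 by -3.15 ± 0.16 (adjusted p = 3.82e-10). Ifng itself had 0 counts in all Tumor and all TdLN libraries.

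Cxcl1 and Cxcl2 attract neutrophils through CXCR2 and are classic NF-kB targets. They are neighbours on the plus strand of chromosome 5, Cxcl1 at 90891241 to 90893115 and Cxcl2 at 90903871 to 90905938, and of the 50-base stretches of Cxcl2 transcripts 5.84% also occur in other genes, so a small part of its reads can be lost or misplaced. The promoters of both are printed because they hold the same kappa B match in a different surrounding. Beside them is that of Ccl20, which also fell in Tumor cells but was higher in TdLN than in NdLN cells. The windows, in RefSeq (GRCm38.p6, plus strand, 5′ to 3′), are chr5:90890995-90891244 for Cxcl1, chr5:90903649-90903898 for Cxcl2 and chr1:83116516-83116765 for Ccl20. Capitals mark matches as before.
Cxcl1: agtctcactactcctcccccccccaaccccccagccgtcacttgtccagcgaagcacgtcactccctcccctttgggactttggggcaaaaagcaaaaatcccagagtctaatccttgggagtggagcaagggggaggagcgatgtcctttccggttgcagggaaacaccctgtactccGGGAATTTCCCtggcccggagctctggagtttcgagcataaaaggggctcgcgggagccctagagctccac
Cxcl2: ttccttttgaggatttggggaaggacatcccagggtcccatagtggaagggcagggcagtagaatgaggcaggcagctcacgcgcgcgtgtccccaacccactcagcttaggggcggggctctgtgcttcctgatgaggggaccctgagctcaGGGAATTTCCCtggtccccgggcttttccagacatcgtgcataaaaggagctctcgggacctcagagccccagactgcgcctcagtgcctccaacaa
Ccl20: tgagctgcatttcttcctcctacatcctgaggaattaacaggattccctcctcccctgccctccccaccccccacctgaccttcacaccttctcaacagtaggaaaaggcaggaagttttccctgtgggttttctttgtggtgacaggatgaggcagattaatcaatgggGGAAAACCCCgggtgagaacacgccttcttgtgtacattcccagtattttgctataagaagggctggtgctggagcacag
In Cxcl1 and Cxcl2 the capitals are the same run of letters, at bases -71 to -61 and -97 to -87, made of 2 overlapping matches on opposite strands. The Ccl20 match lies at -80 to -71. Of the 7 chemokine genes with a RefSeq promoter window 4 held kappa B, these 3 and Cxcl10, and Ccl8, Cxcl9 and Cx3cl1 did not. The looser pattern was in 5 of the 7, the same 4 and Cxcl9.

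Cxcl1 had 35.8, 27.1, 37.5, 18.7 and 47.3 CPM in Tumor libraries, 139, 131, 234, 218 and 139 CPM in TdLN libraries and 213, 204, 410, 233 and 321 CPM in NdLN libraries. All Tumor libraries were below all node libraries, and the node groups overlapped. Cxcl1 fell in Tumor cells by a log2 fold change of -2.37 ± 0.27 against TdLN (adjusted p = 2.62e-06, edgeR) and -3.05 ± 0.28 against NdLN cells (adjusted p = 1.95e-07). Set against NdLN cells, TdLN cells were at -0.68 ± 0.26 (adjusted p = 0.187).

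Cxcl2 was far less abundant. It had 5.24, 2.91, 5.20, 2.93 and 4.58 CPM in Tumor libraries, 12.4, 11.97, 24.9, 18.4 and 8.42 CPM in TdLN libraries and 11.1, 15.9, 30.7, 17.8 and 25.4 CPM in NdLN libraries. As for Cxcl1, the Tumor libraries were all the lowest and the node groups overlapped. Cxcl2 fell in Tumor cells by -1.87 ± 0.33 against TdLN (adjusted p = 0.000173, edgeR) and -2.28 ± 0.34 against NdLN cells (adjusted p = 2.54e-05). TdLN cells differed from NdLN cells by -0.41 ± 0.32 (adjusted p = 0.561).

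The fall in Tumor cells was steeper for Cxcl1 than for Cxcl2. The ratio of Cxcl1 to Cxcl2 was 6.83, 9.31, 7.22, 6.39 and 10.3 in Tumor libraries, 11.2, 10.98, 9.40, 11.9 and 16.5 in TdLN libraries and 19.3, 12.8, 13.3, 13.0 and 12.6 in NdLN libraries. The log2 ratio was lower in Tumor than in NdLN by 0.95, with no overlap (exact p = 0.00794, adjusted p = 0.0119), and lower in Tumor than in TdLN by 0.68 (exact p = 0.0159, adjusted p = 0.0204). TdLN and NdLN ratios overlapped (exact p = 0.175). Neutrophil markers were near 0 in every group: the 6 genes summed to at most 2.11 CPM in Tumor, 1.99 CPM in TdLN and 3.34 CPM in NdLN libraries.

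Ccl20 showed the widest range of the 10 genes. It lies at 83116766 to 83119167 on the plus strand of chromosome 1 and encodes the chemokine that brings CCR6-bearing cells to epithelia and to the node sinus. Ccl20 had 1.23, 0.367, 0.646, 0 and 0.0290 CPM in Tumor libraries, 632, 554, 935, 402 and 416 CPM in TdLN libraries and 72.6, 33.2, 118, 67.0 and 102 CPM in NdLN libraries. The 3 groups did not overlap, and the 5 Tumor libraries held 68 counts together, with 0 counts in Tumor 4, which allows a level of up to 0.0862 CPM there (3 counts, counting error only). Ccl20 was higher in TdLN than in NdLN cells by a log2 fold change of 2.90 ± 0.52 (adjusted p = 0.00676, edgeR), and it was lower in Tumor cells by -10.42 ± 0.76 against TdLN (adjusted p = 1.77e-08) and by -7.52 ± 0.69 against NdLN cells (adjusted p = 1.84e-07). Tumor 1 held the most Tumor counts, and without it the Tumor differences were -11.10 against TdLN and -8.20 against NdLN cells.

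Beside Ccl20, the 9 markers of node sinus endothelium summed to 121 to 185 CPM in Tumor, 6530 to 8590 CPM in TdLN and 6730 to 9350 CPM in NdLN libraries. In Tumor cells 8 of the 9 were lower than in NdLN and 8 lower than in TdLN cells, as Ccl20 was. Of all tested genes 32.5% and 30.1% were lower. The exception was Mrc1, higher in Tumor than in NdLN cells (0.85 ± 0.31, adjusted p = 0.0246, edgeR). Against TdLN cells Mrc1 was not called (-0.34 ± 0.31, adjusted p = 0.348). In TdLN against NdLN cells 1 of the 9, Mrc1 (1.19 ± 0.31, adjusted p = 0.0482), was higher and 0 were lower in edgeR, with 2 higher and 2 lower at an unadjusted p under 0.05, and 2 higher and 0 lower in DESeq2. The part of sinus cells in the Ccl20 level was not tested.

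Cx3cl1 is anchored in the membrane of endothelial and other cells and is released by the proteases ADAM10 and ADAM17. The gene lies at 94772009 to 94782427 on the plus strand of chromosome 8. Cx3cl1 had 10.4, 18.8, 14.1, 17.2 and 30.02 CPM in Tumor libraries, 20.8, 15.1, 19.9, 25.3 and 21.3 CPM in TdLN libraries and 39.1, 56.1, 64.4, 57.8 and 55.3 CPM in NdLN libraries. All NdLN libraries were the highest, and Tumor and TdLN libraries overlapped. Cx3cl1 was lower than in NdLN cells by a log2 fold change of -1.41 ± 0.24 in TdLN (adjusted p = 0.00481, edgeR) and -1.59 ± 0.24 in Tumor cells (adjusted p = 2.97e-05). Tumor and TdLN cells were not told apart (-0.18 ± 0.23, adjusted p = 0.533). The 10 blood endothelial markers summed to 473 to 1200 CPM in Tumor, 3250 to 7620 CPM in TdLN and 3350 to 6500 CPM in NdLN libraries. Plvap and Glycam1 make up most of the node sums, at 3325 and 2022 CPM in TdLN and 2501 and 1454 CPM in NdLN cells on average. In TdLN against NdLN cells 3 of the 10 were lower, as Cx3cl1 was, and 0 were higher in edgeR, beside 1.64% of tested genes lower. At an unadjusted p under 0.05 5 were lower, and 4 were lower in DESeq2. The 3 were Flt1 (-1.81 ± 0.45, adjusted p = 0.0393), Emcn (-1.22 ± 0.23, adjusted p = 0.0100) and Vwf (-1.44 ± 0.28, adjusted p = 0.0118), named after their values were seen. Plvap (0.41 ± 0.66) and Glycam1 (0.48 ± 0.50) leaned the other way and were not called. In Tumor against TdLN cells, where Cx3cl1 was not called, 7 of the 10 were lower and 1 higher. The part of blood endothelial cells in the Cx3cl1 result was not tested.

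**Figure D3:**
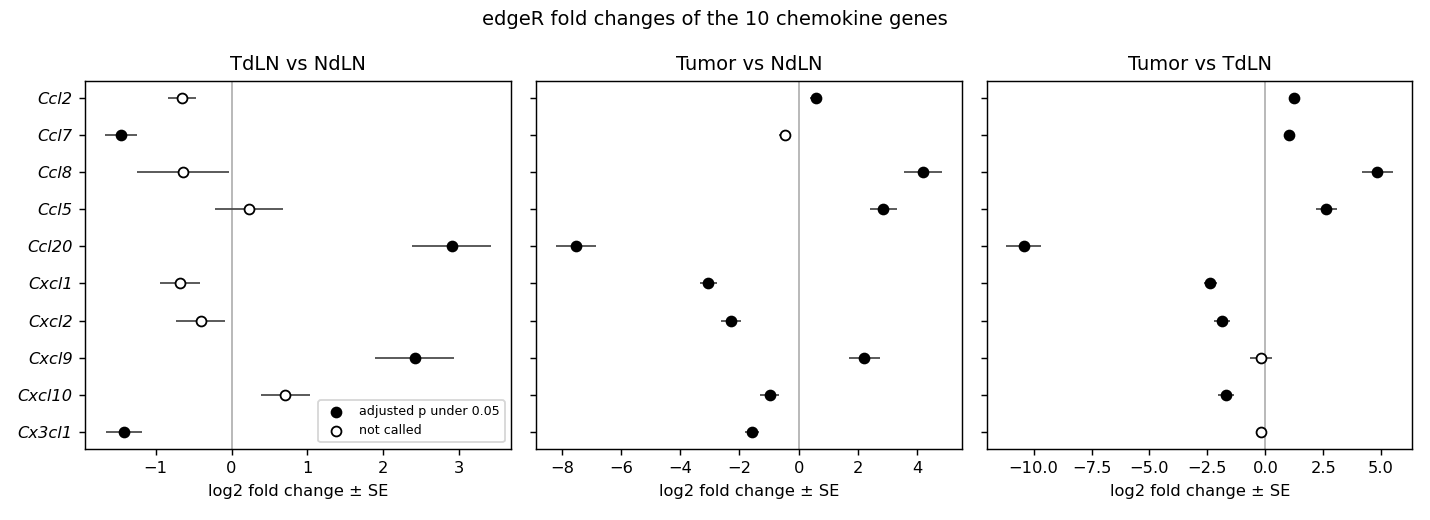
Log2 fold change with its SE (horizontal axes, each panel with its own scale) of the 10 chemokine genes in TdLN against NdLN, Tumor against NdLN and Tumor against TdLN cells; filled points have an adjusted p under 0.05 in edgeR. Ccl20 has the largest change of the 10 in each panel, higher in TdLN (2.90) and lower in Tumor cells (-7.52 and -10.42).

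Levels of different genes were compared per kilobase of merged exons. In Tumor cells Ccl2 was the highest at 189 CPM per kilobase, ahead of Cxcl10 (75.3), Ccl8 (65.2), Ccl7 (63.3) and Cxcl9 (46.6), and the lowest was Ccl20 (0.320). In TdLN cells Ccl20 (414 CPM per kilobase) and Cxcl10 (243) led, and Ccl8 was the lowest at 2.26. In NdLN cells Cxcl10 (149 CPM per kilobase), Cxcl1 (147) and Ccl2 (127) were close to each other, within the SD of each over libraries, and Ccl5 was the lowest at 3.33. With the length of the coding transcript instead, Cxcl1 (290 CPM per kilobase) passed Cxcl10 (248) in NdLN cells and Cxcl10 (405) came near Ccl20 (415) in TdLN cells, because the merged exons of Cxcl1 and Cxcl10 include retained introns. The lowest in NdLN cells was then Ccl8 (3.54), with Ccl5 at 6.005.

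**Figure D4:**
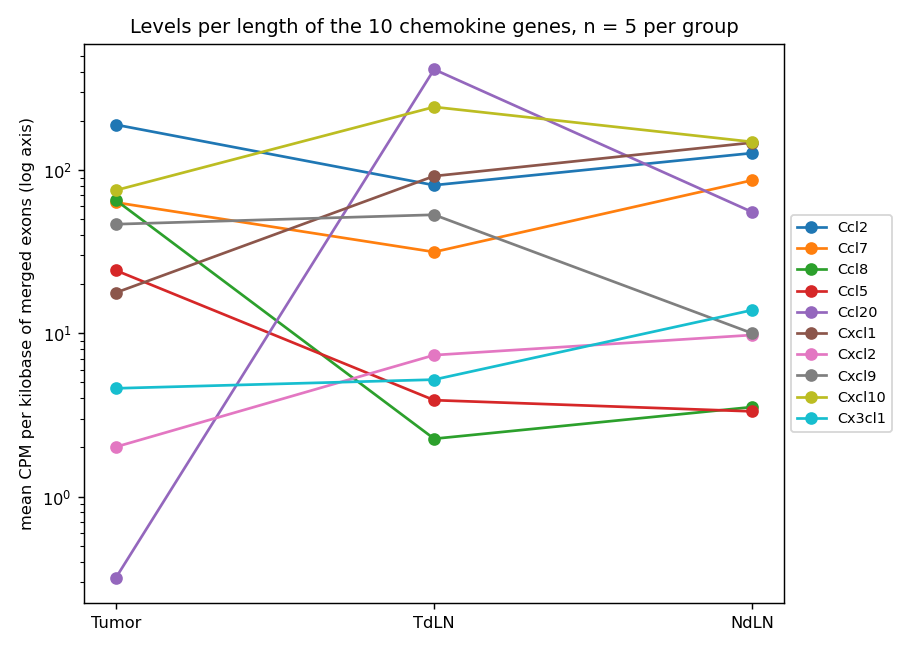
Mean level per kilobase of merged exons (vertical axis, log scale) of the 10 chemokine genes in Tumor, TdLN and NdLN cells, n = 5 libraries per group; lines join the values of a gene. Ccl2 leads in Tumor (189), Ccl20 in TdLN (414) and Cxcl10 in NdLN cells (149), and Ccl20 is at 0.320 in Tumor cells.

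Within each group the genes tended to be high in the same libraries. TdLN 3 had the highest value of the 5 TdLN libraries for 9 of the 10 genes (all but Cx3cl1), and NdLN 3 had the highest of the NdLN libraries for 9 (all but Cxcl9), while 17.3% and 21% of all tested genes were highest there. Tumor 5 was the highest Tumor library for 7 of the 10, against 21% of tested genes. On the scale of log2(CPM + 0.5), the median deviation of the 10 genes from their group mean was 0.73 in Tumor 5, 0.66 in TdLN 3 and 0.67 in NdLN 3, whereas the median over all tested genes was within 0.04 of 0 in these libraries. The lowest medians were -0.36 in Tumor 4, -0.38 in TdLN 2 and -0.41 in NdLN 1.

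The summed level of leukocyte markers was also highest in these node libraries. The 4 pan-leukocyte genes Ptprc, Coro1a, Laptm5 and Cd53 summed to 72.7 CPM in TdLN 3, against 47.7 to 64.9 CPM in the other TdLN libraries, and to 99.1 CPM in NdLN 3, against 34.3 to 89.1 CPM in the other NdLN libraries. Of these 4 genes Cd53 had the highest node means, at 43.8 CPM in TdLN and 34.7 CPM in NdLN cells. Ptprc went the other way, at 1.1 CPM in TdLN and 5.43 CPM in NdLN cells on average. Which of the 4 genes made the sums of TdLN 3 and NdLN 3 the highest was not tested. Macrophage markers summed to 45.3 CPM in TdLN 3, against 13.0 to 15.7 CPM in the other TdLN libraries. TdLN 3 also had the highest lymphatic (8080 CPM), fibroblast (382 CPM), T and natural killer cell (5.06 CPM) and B cell sums (26 CPM). Its blood endothelial (3250 CPM) and dendritic cell sums (81.9 CPM) were the lowest. NdLN 3 had the highest macrophage (30.7 CPM), B cell (43.5 CPM), neutrophil (3.34 CPM) and pigment cell sums (37.6 CPM) and the lowest lymphatic sum (7510 CPM). In Tumor 5 the leukocyte sum was 20.0 CPM, in the middle of 14.5 to 30.6 CPM, while the fibroblast sum was the highest at 10200 CPM. Also highest there were the dendritic cell sum, at 478 CPM against 79.3 to 239 CPM in the other Tumor libraries, and the pigment cell sum, at 39600 CPM. The blood endothelial sum was the lowest at 473 CPM, and the remaining marker sums lay in between. Of the dendritic cell markers H2-Aa had by far the highest Tumor mean, at 192 ± 161 CPM (SD, n = 5), followed by Zbtb46 at 13.1 CPM. Clec9a averaged 1.64 CPM and Itgax 0.452 CPM in Tumor libraries. The part of any of these cell types in the chemokine levels was not tested. Without NdLN 3, TdLN 3 and Tumor 5, chosen after seeing the data, again 4 of the 10 chemokine genes were called in TdLN against NdLN cells. In Tumor cells 10 were called against NdLN and 8 against TdLN cells. Of all tested genes 194, 8917 and 8053 were called in these comparisons, in the same order.

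**Figure D5:**
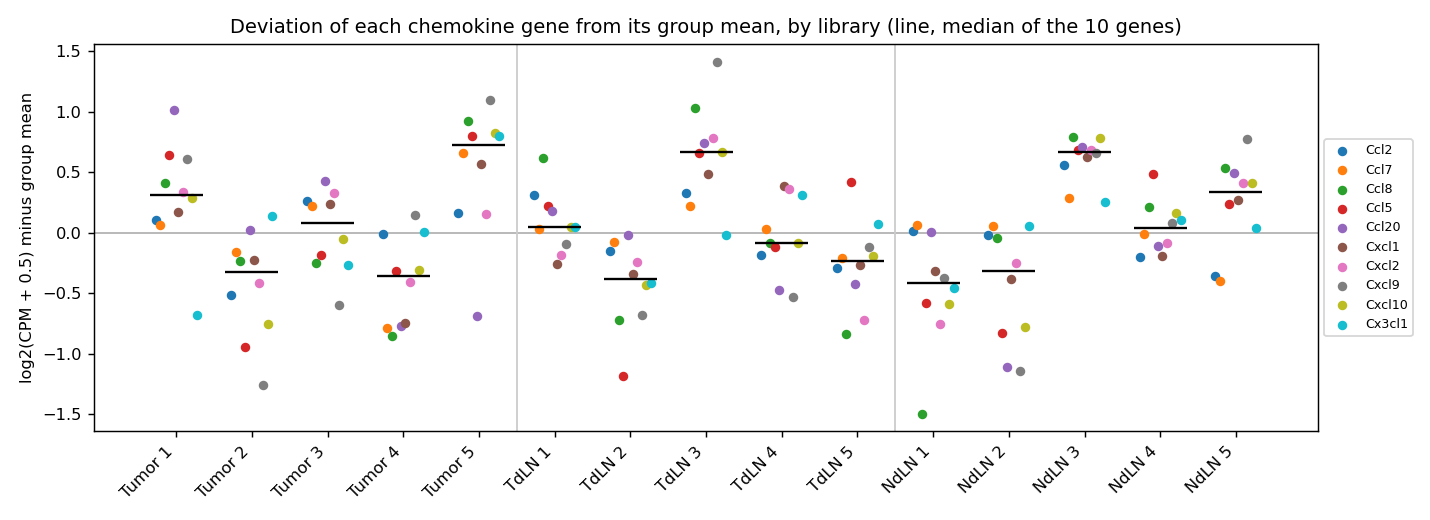
Deviation of log2(CPM + 0.5) from the group mean (vertical axis) of the 10 chemokine genes in each Tumor, TdLN and NdLN library; points are genes and black lines are the median of the 10. The medians of Tumor 5 (0.73), TdLN 3 (0.66) and NdLN 3 (0.67) are the highest of their groups.

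Genes with the most similar profile were found as those with the smallest root mean square difference (RMS) of centred log2 CPM over the 15 libraries. The closest to Cxcl10 were Calhm6 (RMS 0.241), Sp110 (0.355) and Rasd1 (0.389), and the closest to Ccl2 were Mars2 (0.274), Tnfrsf12a (0.283) and Nabp1 (0.291). Cxcl1 was closest to Gem (0.280), Map7 (0.351) and Nfkbiz (0.354), an NF-kB cofactor, and Cxcl2 to Fcgr2b (0.368). Cxcl1 and Cxcl2 were each other's nearest among the 10 chemokine genes (0.437), as were Ccl2 and Ccl7 (0.547). Ccl20 had no close match: its nearest gene was Coch (1.08), and its nearest chemokine gene was Cxcl1 (3.63). The likeness is a description over libraries that share groups.

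The receptors of these chemokines were scarce in the sorted cells. Of 10 signalling receptor genes 5 passed the filter on low counts. In TdLN against NdLN cells 0 of the 5 passed in edgeR, 0 had an unadjusted p under 0.05 and 0 passed in DESeq2, and in Tumor cells 3 were higher against each node group. Cxcr3, the receptor of Cxcl9 and Cxcl10, averaged 13.1 ± 4.79 CPM in Tumor, 4.47 ± 1.07 CPM in TdLN and 3.00 ± 1.38 CPM in NdLN cells (SD, n = 5), a log2 fold change in Tumor cells of 1.54 ± 0.34 against TdLN (adjusted p = 0.00102, edgeR) and 2.12 ± 0.35 against NdLN (adjusted p = 6.47e-05). Ccr2 was also called in Tumor against TdLN cells (3.26 ± 1.12, adjusted p = 0.0193). Ccr1 was also called in Tumor against NdLN cells, and its call was lost without NdLN 1, 3, 4 or 5 or Tumor 1 (adjusted p = 0.0713 to 0.156).

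Scavenging receptors bind chemokines and remove them without signalling through G proteins. Ackr2, which takes up inflammatory CC chemokines including Ccl2, Ccl5, Ccl7 and Ccl8, averaged 310 ± 34.2 CPM in Tumor, 480 ± 86.9 CPM in TdLN and 264 ± 35.6 CPM in NdLN cells. It was higher in TdLN than in NdLN cells (log2 fold change 0.86 ± 0.14, adjusted p = 0.00372, edgeR), the group in which Ccl7 was lower. Ccl2, Ccl5 and Ccl8 were not called in that comparison in edgeR. A link between Ackr2 and the RNA of these chemokines was not tested. Of the 5 scavenging receptor genes, 2 were higher and 1 was lower in TdLN than in NdLN cells. Beside Ackr2 these were Gpr182 at 0.52 ± 0.09 (adjusted p = 0.00627) and Ackr3 at -0.85 ± 0.13 (adjusted p = 0.00336). In Tumor cells 4 of 5 were lower than in NdLN, all but Ackr2, and 5 of 5 were lower than in TdLN cells.

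Genes of NF-kB signalling, which drives many of these chemokines, were low in Tumor cells. Of 16 tested, 13 were lower and 0 were higher in Tumor than in NdLN cells, and the counts were the same against TdLN cells (edgeR, with 0 higher at an unadjusted p under 0.05 and 0 higher in DESeq2 in both comparisons). Nfkb2 was lower in Tumor by -3.02 ± 0.20 against TdLN cells (adjusted p = 5.76e-09, edgeR), and the inhibitor Nfkbia by -2.29 ± 0.11 (adjusted p = 1.68e-10). In TdLN against NdLN cells 1 of the 16 passed, Nfkbia at -0.46 ± 0.10 (adjusted p = 0.0263), a call lost without NdLN 1, 2 or 3 or TdLN 1, 2 or 5 (adjusted p = 0.0521 to 0.0713). Of 15 receptor and adaptor genes for inflammatory cytokines and microbial products, 0 passed in TdLN against NdLN cells (edgeR, with 5 at an unadjusted p under 0.05 and 0 in DESeq2) and 10 were lower in Tumor cells against each node group, among them Tlr2 at -2.91 ± 0.11 against TdLN (adjusted p = 3.06e-11). The receptor chain gene Il1rap was the exception that was higher in Tumor than in TdLN cells (0.69, adjusted p = 0.0195). Of all tested genes 32.5% were lower in Tumor than in NdLN and 30.1% lower than in TdLN cells. Cxcl1, Cxcl2, Cxcl10 and Ccl20 were lower in Tumor cells against both node groups, and Ccl2, Ccl5 and Ccl8 were higher against both. Ccl7 was called only against TdLN cells, as higher. Against NdLN cells alone Cxcl9 was called higher and Cx3cl1 lower. The part of NF-kB signalling or of these receptors in the chemokine levels was not tested.

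Many chemokine mRNAs carry AU-rich elements through which decay factors shorten their life. Of 12 decay and stability genes 3 were lower and 0 higher in TdLN than in NdLN cells (edgeR, with 7 lower and 1 higher at an unadjusted p under 0.05, and 5 lower and 0 higher in DESeq2). Zfp36, which encodes the decay factor tristetraprolin, was at -1.20 ± 0.14 (adjusted p = 0.00111, edgeR) and Btg2, a partner of the deadenylases, at -1.30 ± 0.13 (adjusted p = 0.000207). The third was Zfp36l1 (-0.57 ± 0.14, adjusted p = 0.0328), whose call was lost without NdLN 2, 3, 4 or 5 or any TdLN library (adjusted p = 0.0518 to 0.0955). In Tumor cells 7 were lower and 2, Elavl1 and Hnrnpd, higher than in NdLN, and 5 were lower and 0 higher than in TdLN cells. The 5 were Zfp36, Zfp36l1, Zc3h12a, Btg1 and Btg2.

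Chemokines are trimmed by proteases and held on heparan sulfate. Of 10 protease genes 0 passed in TdLN against NdLN cells in edgeR, 0 had an unadjusted p under 0.05 and 0 passed in DESeq2, while in Tumor cells 5 were higher and 4 lower than in NdLN, and 3 were higher and 4 lower than in TdLN cells. Mmp9, a gelatinase, was at -7.41 ± 0.33 in Tumor against TdLN cells (adjusted p = 8.65e-11, edgeR) and Mmp2, which also clips Ccl7, at 5.79 ± 0.50 (adjusted p = 1.17e-07). Adam10 and Adam17, the proteases that release Cx3cl1, were lower in Tumor cells, at -1.22 and -0.61 against NdLN (adjusted p = 3.22e-06 and 0.00151). They and Ctss, Dpp4, Mmp14 and Mmp12 were named after their values were seen. Ctss was the remaining lower protease gene, and Dpp4 and Ctsb were higher with Mmp2 in both Tumor comparisons, joined by Mmp14 and Mmp12 against NdLN cells. Of 17 genes for heparan sulfate and its carriers, 1 was higher and 1 lower in TdLN than in NdLN cells. These were the membrane carriers Sdc1 (0.41 ± 0.11, adjusted p = 0.0489), whose call was lost without any node library but TdLN 2 (adjusted p = 0.0563 to 0.131), and Sdc2 (-0.79 ± 0.17, adjusted p = 0.0191), whose call was lost without NdLN 4 or TdLN 2 (adjusted p = 0.0543 and 0.0575). In Tumor cells 4 were higher and 9 lower than in NdLN, and 3 were higher and 9 lower than in TdLN cells, where the sulfotransferase Hs3st1 was at -3.84 ± 0.17 (adjusted p = 7.90e-11). Ext1, Hs2st1 and Sdc2 were higher in both Tumor comparisons and Gpc1 against NdLN cells, named by the same choice.

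Of 23 further chemokine genes 17 were tested. In TdLN against NdLN cells 1 was higher and 0 were lower in edgeR, with 2 lower at an unadjusted p under 0.05 and 0 lower in DESeq2. The higher gene, Ccl9, averaged 8.44 ± 5.73 CPM in Tumor, 15.3 ± 6.85 CPM in TdLN and 4.16 ± 1.96 CPM in NdLN cells (SD, n = 5), with a log2 fold change of 1.88 ± 0.45 in TdLN against NdLN cells (adjusted p = 0.0335, edgeR). The call was lost without NdLN 1, 2, 3 or 4 or TdLN 1, 2 or 3 (adjusted p = 0.0678 to 0.0980). In Tumor cells 10 were higher and 4 lower than in NdLN, and 10 were higher and 3 lower than in TdLN cells. Cxcl16, the membrane-bound ligand of CXCR6, averaged 6.63 ± 1.57 CPM in Tumor, 151 ± 18.2 CPM in TdLN and 114 ± 21.8 CPM in NdLN cells, and was lower in Tumor by -4.51 ± 0.19 against TdLN (adjusted p = 6.24e-11). Cxcl17 and Pf4 were the others lower against both node groups, and Ccl22 was lower against NdLN cells, with 0 counts over the Tumor libraries. Ccl6, a chemokine of myeloid cells, averaged 36.3 ± 16.1 CPM in Tumor, 0.173 ± 0.168 CPM in TdLN and 0.359 ± 0.216 CPM in NdLN cells, and Cxcl14, made by epithelial cells and fibroblasts, 34.97 ± 26.7 CPM in Tumor against 1 count over the TdLN and 10 counts over the NdLN libraries. Macrophage and fibroblast markers were higher in the same Tumor libraries, as given above, and their part was not tested.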

How the data were processed

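The deposited table lists raw read counts, whole numbers with no normalization. The submitters' processing notes name build GRCm38 and the tools CASAVA 1.8.2, STAR 2.4 and featureCounts 1.4.6; no annotation release or strand setting is given in the sources used here. Per the labels' protocols, libraries were made from 1 ng of RNA with a low-input amplification kit and read as single reads of 50 bases; amplified reads are not independent molecules. Gene IDs were matched to GENCODE M21 (21628 of 21839 IDs), whose coordinates are given. Differences were tested in 1 edgeR 4.0.16 quasi-likelihood fit (robust, TMM factors, filterByExpr) of all 15 libraries in R 4.3.3, with Benjamini-Hochberg adjustment over 13887 genes; CPM are scaled by library total and TMM factor, and the SE comes from the F statistic. Ratios of neighbouring genes used a pseudocount of 0.5 CPM and exact permutation tests (scipy 1.17.1) adjusted over 9 tests. No libraries of a group agreed within sampling noise. The edgeR step was tested on simulated data. Some list genes are not reported here by name. The 10 genes and all gene lists were chosen with earlier results of these data known. The named genes were the 10 chemokine genes, up to 3 genes with the smallest adjusted p per list and comparison (the text names part of them) and the 3 most similar genes of each chemokine gene among genes whose average log2 CPM reached 3, without predicted genes. Promoters are RefSeq windows of GRCm38.p6. Alternatives were RLE and upper quartile factors, no filter, a minimum of 10 CPM in 5 libraries, DESeq2 1.42.0, a fit of the compared groups only, a replicate block, a pseudocount of 2 CPM, and each library left out in turn.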

Additional observations from a re-analysis of the deposited data

Results flagged for a closer look

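Among the 30 sets of 5 libraries tested (10 genes in 3 groups), 1 library stood apart from its group by Dixon's criterion at the 95% level, a criterion that chance meets in about 1 of 20 groups. Cxcl9 in TdLN 3 was at 366.6 CPM, while the next TdLN library had 129 CPM, so the gap was 0.845 of the whole range (critical value 0.71 for 5 libraries). TdLN 3 was also the highest TdLN library for 8 other chemokine genes and for the macrophage and leukocyte marker sums. Its lymphatic, fibroblast, T and natural killer cell and B cell marker sums were the highest too. The part of any of these cells in its Cxcl9 level was not tested.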

How the results depend on the processing

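Of 540 values of the 10 genes under the alternatives, 529 kept their direction and their side of the threshold. The 11 others are Ccl2, which passed in TdLN against NdLN cells under DESeq2 (adjusted p = 0.0335) and with the replicate block (adjusted p = 0.0348), and the changes of Ccl7, Cxcl9 and Cxcl10 given in the report. For Ccl7 in Tumor against NdLN cells, the call was also made without NdLN 3, TdLN 3 and Tumor 5 (adjusted p = 0.0209). Cxcl9 in Tumor against TdLN cells was between -0.53 and 0.36 when libraries were left out in turn, and 0.0296 without NdLN 3, TdLN 3 and Tumor 5, a set chosen after seeing the data. The receptor gene Ccr2 in TdLN against NdLN cells was between -1.94 and 0.57 when libraries were left out in turn. The 99 ratio values did not change side. Genes called in TdLN against NdLN cells numbered 484, but 994 with DESeq2, 194 without the 3 libraries and 225 to 564 when libraries were left out in turn, and the cause was not tested. With the replicate block, 400 genes and 5 of the 10 chemokine genes were called in that comparison. Whether same-numbered libraries came from the same animal is not known, and weak correlations cannot decide it. Same-numbered TdLN and NdLN libraries deviated together with r of -0.09 to 0.25, the highest for number 3. Of the 5 TdLN libraries 1 correlated best with its own number. Depth limits Ccl8 and Ccl5 in the nodes and Ccl20 in Tumor cells, where counts were few. Reads of 50 bases without strand leave overlapping genes uncertain.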

Other observations

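Some genes next to the 10 in function were looked at after their values were seen. Cxcl11, the other ligand of CXCR3, of which C57BL/6 mice are known to lack an intact protein, averaged 2.77 ± 2.35 CPM in Tumor cells (SD, n = 5), with 9 counts over the TdLN libraries and 14 counts over the NdLN libraries. Its log2 fold change was 5.63 ± 1.39 in Tumor against TdLN cells (adjusted p = 0.00251, edgeR), so it was higher in Tumor cells, where Cxcl10 was lower and Cxcl9 was not told apart. Ccl12, a mouse ligand of CCR2, averaged 3.96 ± 1.71 CPM in Tumor, 0.255 ± 0.179 CPM in TdLN and 0.0662 ± 0.0390 CPM in NdLN cells, higher in Tumor by 3.94 ± 0.75 against TdLN (adjusted p = 0.000311). Ccr6, the receptor of Ccl20, had 0 counts over the Tumor, 24 over the TdLN and 77 over the NdLN libraries.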
